A study of Homo sapiens with 288 samples.

Results

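The cells described here are trophoblast-like (TB) cells sorted, after sequencing, by how much mRNA of 5 proliferation genes each held: a high-score group with the largest sum and a low-score group with the smallest, 1 of 3 equal groups each. TB cells were derived from H1, a human embryonic stem cell line, seeded in E7 (E8 medium without FGF2) with 50 ng/mL BMP4 and SB431542, an inhibitor of the activin and TGF-beta receptors. Every cell received both agents, and the labels name no separate cultures, so all TB cells count as 1 sample and no p-value or standard error is given. Single cells were caught on a Fluidigm C1 chip, and their amplified full-length cDNA was brought to 1 fixed input. The same cDNA was the source of the libraries in the EQ, EQ-75% and EQ-Vary experiments, 288 samples of 96 cells in all. Endothelial cells (EC) of the series, used here for comparison, were derived from H1 with 5 ng/mL BMP4 and 25 ng/mL Activin A, followed by VEGF and WNT. EQ pooled the libraries at equal volume, EQ-75% repeated it at about 75% of the depth, and EQ-Vary pooled them at uneven volumes.

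Of 51 TB cells in EQ, 48 had a summed count of at least 10 to the power 5.4 and no more than 31% of it in their 50 most abundant genes. These 48 were ranked by a score, the sum of log2(CPM + 1) over MKI67, TOP2A, CDK1, CCNB1 and CCNA2, where CPM is the count scaled to a cell total of 1000000, and cut into groups of 16 high-score, 16 middle and 16 low-score cells. The members were thus chosen by these measured values. Scores ran from 15.72 to 41.91 in the high-score group, with a median of 25.14, and from 0.92 to 8.44 in the low-score group. At the upper edge TB 46 was just inside with 15.72 and TB 37 just outside with 15.71. At the lower edge TB 36 was just inside with 8.44 and TB 6 just outside with 8.45. The 5 genes chose the groups, so their values, and the values of every other gene in the same cells, are descriptions of these cells and support no test.

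A dividing cell copies its DNA in S phase, using the MCM helicase, polymerases and nucleotide synthesis, and then in G2 and mitosis builds up cyclins A and B, which activate the kinase CDK1. Chromosomes are compacted by condensin and topoisomerase II, held to the spindle by kinetochores under the spindle checkpoint, and released when the anaphase-promoting complex marks cyclin B and securin for destruction. In the placenta, cytotrophoblast cells divide, whereas syncytiotrophoblast, the fused hormone-producing layer, has left the cell cycle. Many mitotic genes carry in their promoters a CCAAT box, bound by NF-Y, and a cell cycle homology region with the core TTTGAA, bound by the DREAM and MuvB complexes. S-phase genes more often carry E2F sites.

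Promoter letters were not used in the ranking. The 5 members with the largest differences that have an entry in RefSeq's promoter table (GRCh38.p14) are shown because they carry the mitotic part of the pattern. Each run is the 250 bases before the RefSeq start on the gene's own strand, 5′ to 3′, and capitals mark TTTGAA and CCAAT, the latter also where it lies on the other strand and reads ATTGG. The windows are chr4:184734097-184734346 (minus strand) for CENPU, chr15:90994536-90994785 (minus) for PRC1, chr15:59104896-59105145 (plus) for CCNB2, chr17:8210226-8210475 (minus) for AURKB and chr4:17810729-17810978 (plus) for NCAPG. The RefSeq start can differ from the GENCODE bounds given below, and the PRC1 and AURKB windows lie wholly inside them and those of CENPU and CCNB2 in part. BIRC5, HMGB2 and TPX2 were not matched.
CENPU: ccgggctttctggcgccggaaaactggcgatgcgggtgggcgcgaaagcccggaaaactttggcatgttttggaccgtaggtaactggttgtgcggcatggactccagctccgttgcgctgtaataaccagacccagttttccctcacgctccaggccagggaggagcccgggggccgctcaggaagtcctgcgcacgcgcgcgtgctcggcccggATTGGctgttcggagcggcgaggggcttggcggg
PRC1: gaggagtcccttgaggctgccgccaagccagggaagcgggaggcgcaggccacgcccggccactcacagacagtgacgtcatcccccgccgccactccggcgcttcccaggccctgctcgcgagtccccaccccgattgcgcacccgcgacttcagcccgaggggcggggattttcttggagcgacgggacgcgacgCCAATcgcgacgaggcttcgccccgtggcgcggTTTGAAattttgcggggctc
CCNB2: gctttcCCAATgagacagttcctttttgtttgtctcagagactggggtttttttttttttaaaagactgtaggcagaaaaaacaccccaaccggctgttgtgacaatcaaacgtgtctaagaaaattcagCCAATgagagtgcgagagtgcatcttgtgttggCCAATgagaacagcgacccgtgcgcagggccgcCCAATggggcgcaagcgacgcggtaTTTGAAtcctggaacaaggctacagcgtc
AURKB: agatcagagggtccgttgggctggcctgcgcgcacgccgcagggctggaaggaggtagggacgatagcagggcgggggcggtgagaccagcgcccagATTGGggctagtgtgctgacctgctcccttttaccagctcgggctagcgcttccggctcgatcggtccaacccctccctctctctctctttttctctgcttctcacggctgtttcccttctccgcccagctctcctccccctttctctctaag
NCAPG: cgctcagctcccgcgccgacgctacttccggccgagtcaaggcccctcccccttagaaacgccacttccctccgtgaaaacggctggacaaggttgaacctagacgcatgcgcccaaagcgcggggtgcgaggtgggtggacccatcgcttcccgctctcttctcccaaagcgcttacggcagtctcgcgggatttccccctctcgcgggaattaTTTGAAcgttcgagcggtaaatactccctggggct

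The CCNB2 window, in front of the gene for cyclin B2, held 4 CCAAT boxes, 244, 120, 87 and 54 bases before the start, and TTTGAA 29 bases before it. TTTGAA lay 20 bases before the start of PRC1 and 35 before that of NCAPG. PRC1 had a CCAAT box 53 bases before its start, CENPU 1 on the other strand at 34 and AURKB 1 on the other strand at 153. Promoters were matched for 58 of 67 mitotic genes past the limit, 24 of 28 between the limits, 29 of 33 and 15 of 15 replication genes, and 8146 of all 9950 genes tested. Searched on both strands, TTTGAA was in 27 of 58 promoters (46.6%) of mitotic genes at least 1 higher in the high-score group on the log2 scale described next, in 7 of 24 (29.2%) of mitotic genes between the limits, in 8.61% of those of all genes tested and in 13.6% of all promoters in the table. For CCAAT the shares were 69.0%, 66.7%, 36% and 33%, and in replication genes 19 of 29 past the limit and 6 of 15 between. TTNGCGC, an E2F-type motif, was in 13 of 29 promoters (44.8%) of replication genes at least 1 higher, in 6 of 15 of those between the limits, in 11.1% of all genes tested and in 6.73% of the table, and in mitotic genes in 9 of 58 and 2 of 24. No motif contains another, and a match is a description of a window, not a bound site.

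The ranking genes are MKI67 (chr10:128096659-128126423), which codes for the Ki-67 protein that coats mitotic chromosomes, TOP2A (chr17:40388525-40417896) for topoisomerase II alpha, CDK1 (chr10:60778331-60794852), CCNB1 (chr5:69167135-69178245) for cyclin B1 and CCNA2 (chr4:121816444-121823883) for cyclin A2, all in GRCh38 with GENCODE v44 gene bounds. MKI67 ranged from 0 to 603 CPM in the high-score group, with a median of 53.7, and from 0 to 1.63 CPM in the low-score group. TOP2A ranged from 0.77 to 866 CPM with a median of 51 in the high-score group and reached 9.38 CPM in the low-score group. For MKI67, 12 of the 16 high-score cells lay above every low-score cell, and for TOP2A 10 did. CDK1 had a median of 94.7 CPM in the high-score group and 0.98 in the low-score group, where 1 cell, TB 36, held 134 CPM. CCNB1 had medians of 207 and 2.47 CPM, and 3 low-score cells had at least 10 CPM. CCNA2 had medians of 19.7 and 0.18 CPM, and none of the low-score cells reached 10 CPM.

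The label "mitotic" held for some of the high-score group only. With a gene counted as present from 10 CPM, 5 of the 16 high-score cells (TB 43, 34, 29, 19 and 10) had all 5 ranking genes present, 2 (TB 1 and 33) had 4, 5 had 3, 2 had 2 and 2 had 1. TB 20 entered through TOP2A at 340 CPM and TB 9 through MKI67 at 77.4 CPM, each with the other 4 genes under 10 CPM. Of the low-score group, 12 cells had none of the genes present and 4 had 1; of the middle group, 1 cell (TB 39) had 3, 4 had 2 and 11 had 1. The groups are therefore called high-score and low-score here, by the ranking, and not mitotic and non-mitotic.

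**Figure D1:**
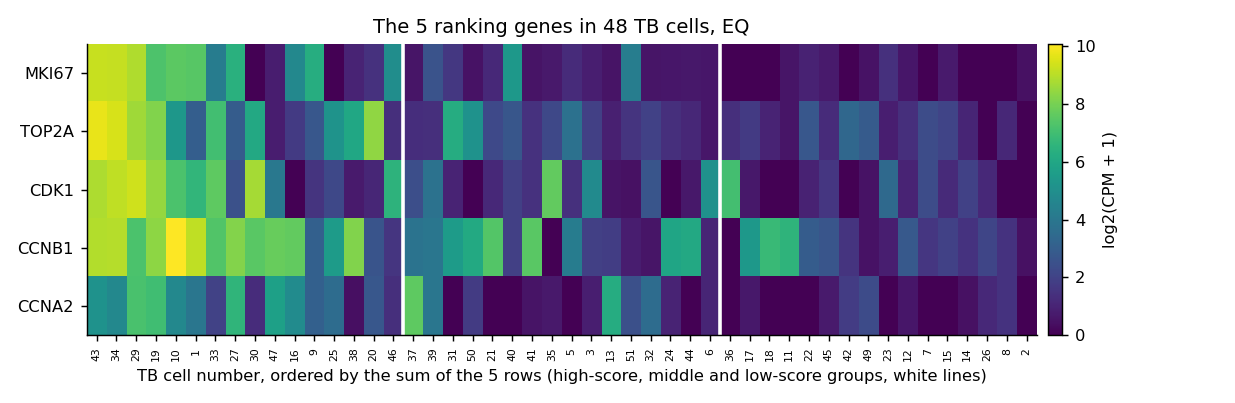
The 5 ranking genes (rows) in each of the 48 TB cells (columns, ordered by score), coloured by log2(CPM + 1) in EQ; white lines separate the groups. TB 43, 34, 29, 19 and 10 at the left hold all 5 genes, further high-score cells hold 1 to 4, and the middle group holds scattered single genes.

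Depth did not separate the groups: summed counts were 529656 to 3479268 in the high-score group (median 1930332) and 494186 to 3092405 in the low-score group (median 1938085). The number of genes detected was 9275 ± 598 (SD, n = 16 cells) in the high-score group and 9349 ± 390 in the low-score group. With every cell thinned to 300000 counts it was 7502 ± 745 and 7714 ± 301, so the high-score group was the more variable. Genes were compared where their mean over the 48 cells was at least 5 CPM, which left 9950 genes besides the ranking genes. A gene near 0 in 1 group can pass this limit through the other cells alone, and can then hardly be called in both directions. The difference is the mean log2(CPM + 1) of the high-score group minus that of the low-score group, and a gene is called higher or lower at a difference of at least 1 either way, a limit of size and not of significance. By this limit 821 genes (8.25%) were higher and 997 (10.0%) lower in the high-score group. The median difference over all genes tested was −0.14. With DESeq2 size factors in place of totals the median moved to −0.04 and the counts to 985 higher and 783 lower, so that the share of higher genes among all genes called went from 45.2% to 55.7%. Any excess of lower over higher genes therefore depends on the scaling.

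Trophoblast and epithelial genes were unevenly present in both groups. The level of their list was 5.29 ± 0.53 (SD, n = 16) in the high-score group, 5.57 ± 0.42 in the middle group and 5.66 ± 0.52 in the low-score group. KRT18, a keratin of simple epithelium, had 438 to 6069 CPM (median 1837) in the high-score group and 267 to 4899 CPM (median 1644) in the low-score group, and its partner KRT8 had medians of 1390 and 856 CPM. KRT19, the adhesion gene CDH1 (E-cadherin) and the trophoblast transcription factors HAND1 and TFAP2C were at 10 CPM or more in every cell of both groups, and TFAP2A in 14 of 16 high-score and 15 of 16 low-score cells. CDX2, a trophectoderm factor, was at 0 in every cell of both groups, which allows up to 0.091 and 0.097 CPM over each group (3 counts). TP63, of cytotrophoblast, was at 0 in 14 of 16 high-score and 15 of 16 low-score cells, DLX3 in 8 and 13, and ELF5 averaged 5.01 and 4.63 CPM. Genes also linked to amnion were high in both, with VTCN1 at means of 1004 and 1340 CPM, IGFBP5 at 1676 and 2335 and ISL1 at 114 and 131. Of 21 measured members of the trophoblast and epithelial list, 0 were higher in the high-score group and 3 lower, beside 8.25% and 10.0% of all genes, with a median difference of −0.46. Endothelial defining markers were at or near 0: CDH5 (VE-cadherin) had at most 2.31 CPM in the high-score group and 2.02 in the low-score group, against a mean of 406 CPM in EC cells. The sum of the 15 endothelial markers was 3.43 to 134 CPM in the high-score group and 12.5 to 111 in the low-score group. PECAM1 averaged 15.4 CPM in the high-score group and 15.5 in the low-score group, against 1317 CPM in EC cells. It was at 10 CPM or more in 11 high-score and 13 low-score cells. FLT1 averaged 7.25 and 11.4 CPM, against 729 CPM in EC cells.

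Across the 5 mitotic lists, which hold 112 genes, 95 were measured above the limit on low values besides the ranking genes. Of these 67 were higher in the high-score group, 0 were lower and 28 lay between, with a median difference of 1.64, beside 8.25% higher among all genes. Since the rule ranked cells by genes of the same programme, this share describes what the ranked cells share and is not a test of it. Some members also passed the limit on low values mainly through the high-score group and could hardly be called lower. DEPDC1, for example, averaged 53.5 CPM in the high-score group, 6.83 in the middle group and 1.38 in the low-score group. The mitotic level, the mean log2(CPM + 1) over the 95 genes, was 4.45 ± 1.52 (SD, n = 16) in the high-score group, 2.96 ± 0.56 in the middle group and 2.88 ± 0.41 in the low-score group. The middle group thus lay close to the low-score group: the median difference was 1.52 between the high-score and middle groups and 0.14 between the middle and low-score groups.

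Among the 18 genes of mitotic entry and the checkpoint, 13 were higher, with a median difference of 1.93. CCNB2 (chr15:59105126-59125045), the second B-type cyclin, had 1.17 to 380 CPM (median 78.7) in the high-score group and 0 to 172 CPM (median 0.84) in the low-score group, a difference of 3.55. It was at 10 CPM or more in 11 high-score and 3 low-score cells. AURKB (chr17:8204733-8210600), the kinase of the chromosomal passenger complex that corrects chromosome attachment, had 0 to 312 CPM in the high-score group and 0 to 4.05 in the low-score group. In 9 of the 16 high-score cells AURKB lay above every low-score cell and in 7 it did not, and the high-score median was 15.8 CPM. CDCA3, which helps to trigger mitotic entry, had a difference of 2.58.

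Of 20 kinetochore and centromere genes 13 were higher, with a median difference of 1.69. CENPU (chr4:184694085-184734130), a subunit of the centromere network on which kinetochores are built, had the largest difference among list members, 4.11. Its values were 1.71 to 287 CPM (median 87.8) in the high-score group, where 10 cells lay above every low-score cell, and 0 to 38.4 CPM (median 0.87) in the low-score group. NDC80, which binds microtubules at the kinetochore, averaged 87.4 CPM in the high-score group and 1.75 in the low-score group, with a high-score median of 1.28 CPM, since 7 cells had 10 CPM or more. SGO2, a protector of centromeric cohesion, had a difference of 2.72.

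Spindle and cytokinesis genes had the highest share of the 5 lists, 24 of 27 higher with a median difference of 1.93. BIRC5 (chr17:78214186-78225636), or survivin, the partner of AURKB in the passenger complex, had 0 to 797 CPM (median 240) in the high-score group and 0.35 to 76.7 CPM (median 2.82) in the low-score group. Summed over cells its expected counts were 10975 (95% Poisson interval 10771 to 11182, counting error only) and 315 (281 to 352). PRC1 (chr15:90966040-90995629), which bundles microtubules of the central spindle, was at 0 in 12 of the 16 low-score cells and at 10 CPM or more in 8 high-score cells and 1 low-score cell. TPX2, an activator of Aurora A on spindle microtubules, had medians of 28.9 and 2.41 CPM.

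Of 9 genes of the anaphase-promoting complex and mitotic exit 6 were higher, led by UBE2C, the E2 enzyme of the complex (difference 2.70), and by CDC20, its activator (2.22). CDC20 was at 10 CPM or more in 6 high-score cells and reached 664 CPM. CDCA5 (sororin), which holds sister chromatids together, had a difference of 1.96. Of 21 genes of chromosome condensation and the nuclear lamina 11 were higher. HMGB2 (chr4:173331376-173334432), an abundant DNA-bending protein, had medians of 366 CPM in the high-score group, 68.3 in the middle group and 17.7 in the low-score group, so that for this gene the middle group stood between the others. The condensin genes NCAPG and NCAPD2 had differences of 3.01 and 1.90.

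**Figure D2:**
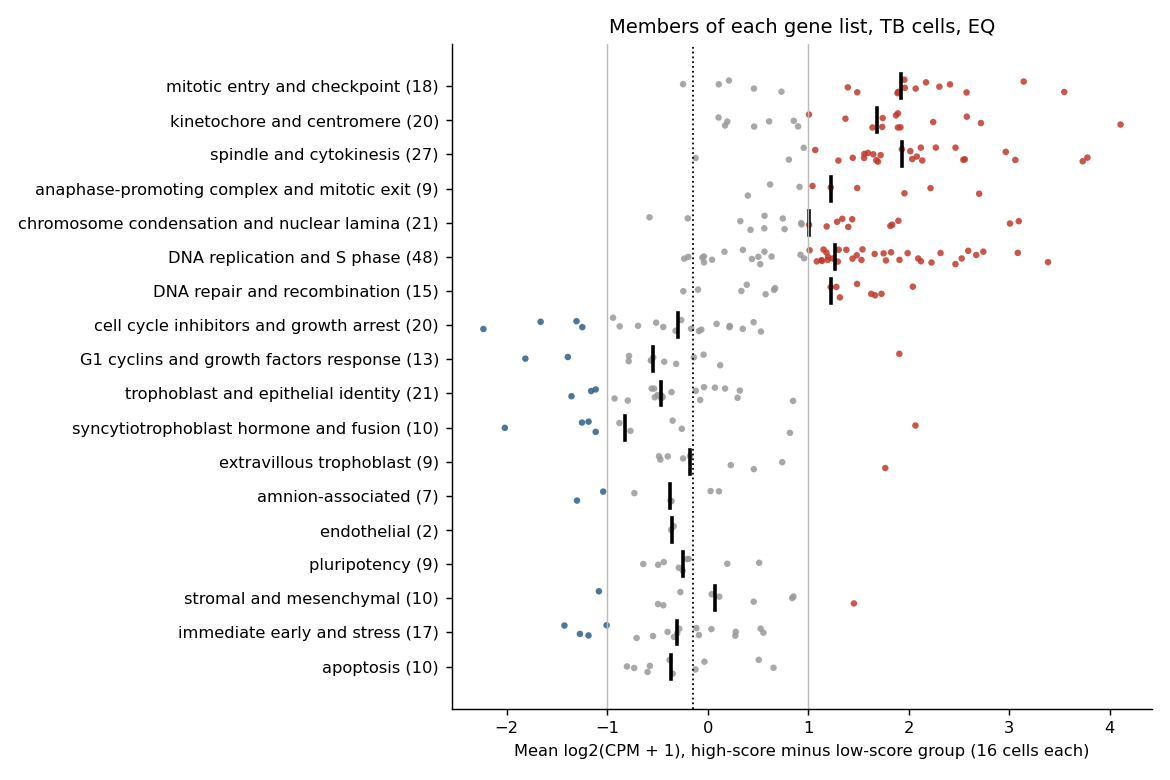
Each point is 1 list member, placed at its mean log2(CPM + 1) in the high-score group minus the low-score group (16 cells each); bars are list medians, the dotted line is the median over all 9950 genes (−0.14), grey lines mark a difference of 1 either way, and brackets give the members measured. The 5 mitotic lists and the replication and repair lists have medians of 1.01 to 1.93 with no member at or below −1, and the other lists have medians of −0.82 to 0.08.

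DNA replication genes, none of which were used in the ranking, also stood higher. Of 48, 33 were higher and 0 lower, beside 8.25% and 10.0% of all genes, with a median difference of 1.27. The ranking genes are proliferation genes too, so this share is likewise a description and not a test. MCM6 (chr2:135839626-135876443), a subunit of the replicative helicase, averaged 91.7 CPM in the high-score group and 0.75 in the low-score group. It was at 0 in 10 of the 16 low-score cells, and none of them reached 10 CPM, whereas 7 high-score and 3 middle cells did. MCM2 (chr3:127598410-127622436), of the same ring, had medians of 41 and 0.24 CPM and a difference of 3.09, and CLSPN, which couples replication to the checkpoint, had a difference of 2.74. The list was not uniform, since 15 members lay between the limits. Of 15 repair and recombination genes 8 were higher, led by FANCI (2.04), RAD51AP1 (1.73) and BLM (1.67). FANCI had 1 low-score cell at 445 CPM, above every high-score cell.

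The replication level, the mean log2(CPM + 1) over the 48 genes, was 3.80 ± 1.61 (SD, n = 16) in the high-score group, 2.75 ± 0.91 in the middle group and 2.47 ± 0.65 in the low-score group. The spread of the high-score group was larger than its distance from the low-score group, and the cells in it were not alike. TB 43, 29 and 19 were high in both, with mitotic levels of 6.33, 6.2 and 6.04 and replication levels of 5.77, 6.12 and 6.22. TB 34, 10 and 1 had mitotic levels of 6.72, 6.18 and 5.31 with replication levels of 4.20, 3.39 and 3.12. TB 30 had the reverse order, 4.83 for mitosis and 6.38 for replication, with 0 CPM of MKI67 and 422 CPM of CDK1. TB 27, 47, 46 and 20 had mitotic levels of 2.22 to 2.87 and replication levels of 1.67 to 2.21, inside the range of the low-score group or below it. TB 9 (3.70 and 3.01) and TB 33 (3.18 and 2.33) also lay inside it in both, although TB 33 had 4 ranking genes present. Of the 16 high-score cells 9 had a mitotic level above that of every low-score cell, and 5 had such a replication level. Outside the high-score group, TB 39 of the middle group (4.59 and 5.84) was above every low-score cell in both, and TB 18 set the low-score group's highest values, 3.91 and 4.42.

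**Figure D3:**
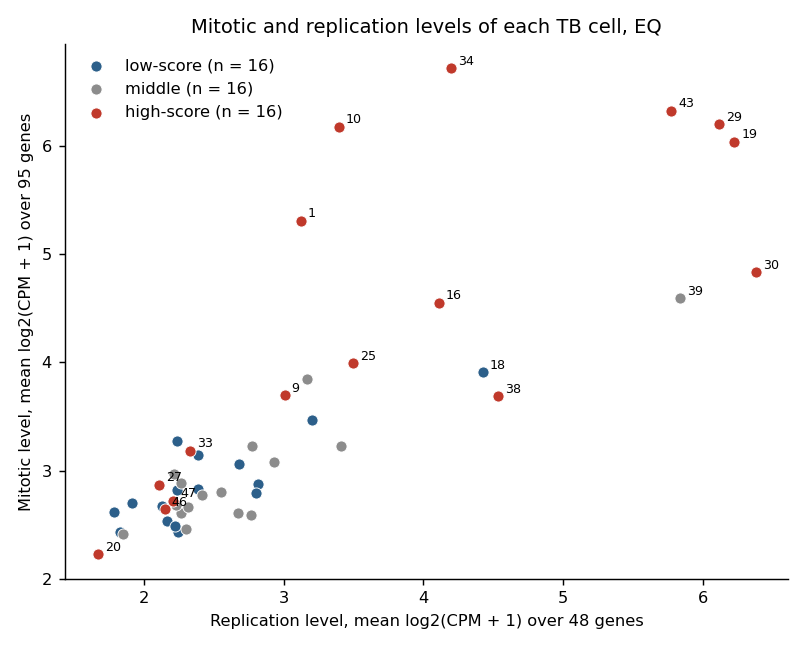
Each point is 1 TB cell in EQ, placed by its replication level (x axis) and its mitotic level (y axis), both mean log2(CPM + 1), and coloured by group (n = 16 each); high-score cells and those with a mitotic level above 3.9 are numbered. TB 43, 29 and 19 lie at the upper right, TB 34, 10 and 1 to the left of them, and TB 27, 47, 46, 20, 33 and 9 within or below the range of the low-score group.

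The 7 high-score cells with at least 4 ranking genes present were therefore set against the low-score group apart from the other 9, a division made after the values were seen. The mitotic level was 5.71 ± 1.19 (SD, n = 7) in the first and 3.47 ± 0.91 (SD, n = 9) in the second. Against the 16 low-score cells, the 7 cells had 1713 genes (17.2%) higher and 1145 (11.5%) lower, and the 9 cells had 737 (7.41%) higher and 1625 (16.3%) lower. Of the 27 spindle genes, 26 were higher in the 7 cells, with a median difference of 3.92, and 9 in the 9 cells, with a median of 0.73. Kinetochore genes followed with 17 of 20 and 4 of 20, and mitotic entry genes with 15 of 18 and 5 of 18. The division was made on the ranking genes, so a gap in genes of the same programme is built into it. Of the replication genes 38 of 48 were higher in the 7 cells (median 2.13) and 25 of 48 in the 9 cells (median 1.01). MCM6 had 10 CPM or more in 2 of the 7 and in 5 of the 9, whereas PRC1 did in 6 of the 7 and 2 of the 9. Summed counts averaged 1938366 in the 7 cells and 2152747 in the 9.

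**Figure D4:**
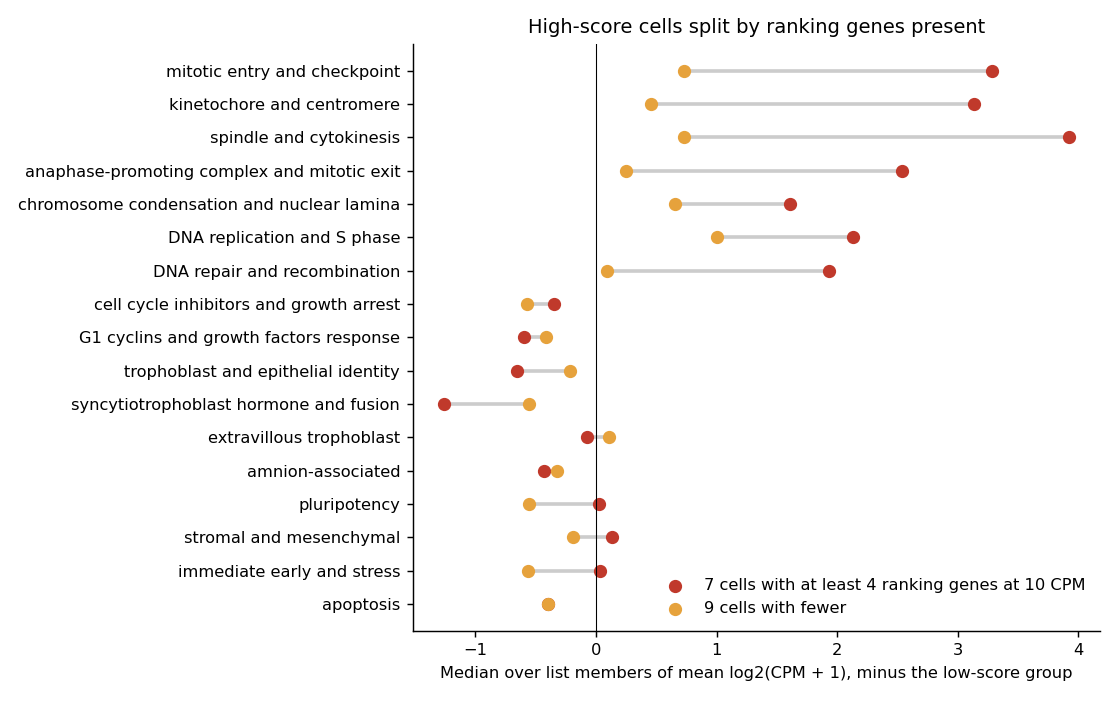
For each gene list, the median over its members of the difference in mean log2(CPM + 1) from the low-score group, for the 7 high-score cells with at least 4 ranking genes at 10 CPM (red) and the other 9 (orange); the endothelial list, with 2 genes measured, is not drawn. The spindle list runs from 0.73 in the 9 cells to 3.92 in the 7, replication from 1.01 to 2.13, and the syncytiotrophoblast list from −0.55 to −1.26.

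Most genes that restrain the cycle lay between the limits. Of 20 measured inhibitors and growth arrest genes 0 were higher and 4 lower in the high-score group, beside 10.0% lower among all genes, and the list's median difference was −0.29. SESN1, a p53 target induced by stress, was at 0 in 12 of 16 high-score cells and had a median of 7.01 CPM in the low-score group, a difference of −2.23. The middle group was low in SESN1 too, with a median of 0.20 CPM and a difference from the low-score group of −2.11. Over the whole list the median difference was −0.60 between the high-score and middle groups and 0.12 between the middle and low-score groups. CCNG2 (chr4:77157207-77433388), an atypical cyclin linked to arrest, had 1.2 to 281 CPM (median 59.7) in the high-score group and 3.03 to 1945 CPM (median 174) in the low-score group. Its lower level sat in the 9 cells with fewer ranking genes, −2.88, and the 7 cells differed by −0.10. CCNG1, another p53 target, had medians of 215 and 368 CPM, and the fourth, TP53INP1, had a difference of −1.25. MDM2, which degrades p53 and lies in the same list, averaged 578 and 575 CPM. In each of these 5 genes the ranges of the groups overlapped. In the 7 cells with most ranking genes 2 of the 20 were higher, RB1 (2.23) and RBL2 (1.03), and 5 lower, beside 17.2% and 11.5% of all genes. In the other 9 cells 0 were higher and 4 lower, RB1 among them (−1.35), beside 7.41% and 16.3% of all genes.

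Among 13 G1 cyclins and growth factor response genes, 1 was higher and 2 were lower, beside 8.25% and 10.0% of all genes. CDK2, the kinase of the G1 to S transition, was higher (1.91), and EGFR (−1.81) and CCND3 (−1.39), a D-type cyclin, were lower. CDK2 had medians of 41.6 CPM in the high-score group and 5.08 in the low-score group. The EGF receptor had 0 to 194 CPM in the high-score group and 6.75 to 295 in the low-score group. The list's median was −0.54.

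From the trophoblast and epithelial list the 3 lower members of 21 were ELF3 (−1.35), VGLL1 (−1.16) and GATA3 (−1.11), a share near that of all genes. GATA3 (chr10:8045378-8075198), a transcription factor that specifies trophoblast, had 35.6 to 601 CPM (median 131) in the high-score group and 90.2 to 526 CPM (median 338) in the low-score group. It was at 10 CPM or more in all of them, so its difference was one of amount. High-score cells TB 1, 19, 27, 30 and 33 lay below every low-score cell, and 2 other high-score cells lay above every low-score cell. In the 7 cells with most ranking genes GATA3 averaged 104 CPM, in the other 9 it averaged 250 and in the low-score group 321. The middle group averaged 201 CPM. GATA3 differed by −0.17 between the high-score and middle groups and by −0.94 between the middle and low-score groups. ELF3 and VGLL1 went the other way, with −1.46 and −1.29 between the high-score and middle groups and 0.11 and 0.14 between the middle and low-score groups.

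Of the 32 syncytiotrophoblast hormone and fusion genes 25 were in the data, and only 10 were measured above the limit on low values. CGB3, CGB8 and PSG1 of this list were at 0 in every cell of both groups, so the 10 do not stand for the whole list. Of the 10, with a median difference of −0.82, 4 were lower and 1 higher in the high-score group, beside 10.0% and 8.25% of all genes. The count depended on the cut: 1 of the 10 was lower with the ranking cut into 2 groups, with cells ranked in EQ-75% and with the ranking made without CCNB1. The level of the list differed by −0.49, and by −0.16 with 2 groups. It was 3.09 ± 0.64 (SD, n = 16) in the high-score group, 3.05 ± 0.61 in the middle group and 3.58 ± 0.77 in the low-score group. The list's median difference was −0.03 between the high-score and middle groups and −0.70 between the middle and low-score groups. The high-score group was thus lower than the low-score group but not than the middle group. PAPPA2, a pregnancy-associated protease, had 119 to 3597 CPM (median 675) in the high-score group and 692 to 2256 CPM (median 1392) in the low-score group, a difference of −1.11. CRH, the placental releasing hormone, was at 0 in 9 high-score and 4 low-score cells and differed by −2.02. TFPI2, a protease inhibitor, was at 0 in 14 high-score and 11 low-score cells, so its difference of −1.25 came from the 5 low-score cells in which it was found, of which 3 had 10 CPM or more. TBX3, a T-box factor, was higher, with medians of 31.8 and 3.20 CPM. In the 7 cells with most ranking genes 7 of the 10 genes were lower (median −1.26), and in the other 9 cells 3 were (median −0.55), beside 11.5% and 16.3% of all genes. In the 7 cells 1 of the 10 was higher and in the 9 cells 2 were, beside 17.2% and 7.41% of all genes. The level of the list was 2.57 in the 7 cells and 3.50 in the 9, beside 3.58 in the low-score group.

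**Figure D5:**
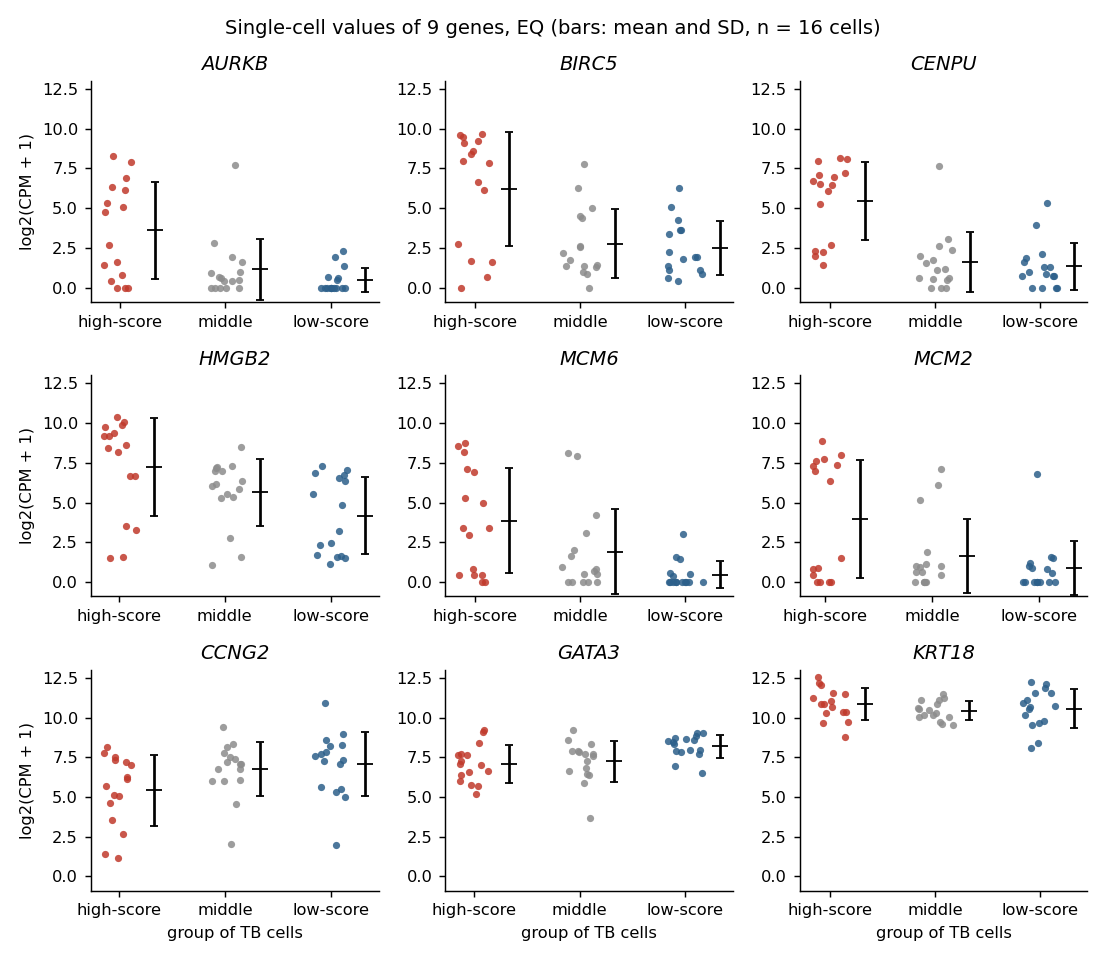
Values of 9 genes in single TB cells in EQ, as log2(CPM + 1), by group (n = 16 each); points are cells, and bars beside them the mean and SD. AURKB, BIRC5, CENPU, MCM6 and MCM2 are spread from 0 or near it to over 7 in the high-score group and lie low in most low-score cells, HMGB2 also in part of the low-score group. CCNG2, GATA3 and KRT18 overlap between the groups, with some cells outside the range of the other group.

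The comparison was repeated in the EQ-75% and EQ-Vary data of the same cells. In EQ-75%, 16 high-score and 15 low-score cells passed the limits, and 864 genes (8.68%) were higher and 1038 (10.4%) lower. Of the 821 genes higher in EQ 670 (81.6%) were past the limit there too, and of the 997 lower 809 (81.1%) were. All 821 and 996 of the 997 kept their sign. In EQ-Vary, with 15 and 16 cells, 952 genes (9.57%) were higher and 1042 (10.5%) lower, and 718 and 808 of the EQ genes were past the limit again. The mitotic lists had 68 of 95 members higher in EQ-75% and the replication list 31 of 48. Because the cDNA was the same, EQ-75% repeats library preparation and sequencing. EQ-Vary is described as differing from EQ in the pooling, so it repeats at least pooling and sequencing. Neither says anything of other cells. When cells were ranked anew in EQ-75%, 13 of 16 high-score cells were again in the high-score group and 10 of 15 low-score cells in the low-score group, and none crossed from one to the other.

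The same rule was applied to the EC cells, giving 12 high-score and 12 low-score cells of 38. With 13.1% of 9615 genes higher and 10.2% lower, 69 of 93 mitotic genes were higher and 2 lower there, but only 10 of 38 replication genes (median 0.48). MCM6 averaged 91.7 and 0.75 CPM in the high-score and low-score TB cells and 4.78 and 11.1 CPM in those of EC. CCNG2 averaged 89.0 and 292 CPM in TB and 64.7 and 5.03 CPM in EC. The difference between the cell types was not tested.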

How the data were processed

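RNA of single H1-derived TB and EC cells was measured by full-length single-cell RNA-seq. The authors trimmed reads, mapped them to GRCh38 protein-coding genes with Bowtie 1.2.3, allowing mismatches, and deposited RSEM 1.2.31 expected counts, which were rounded to whole numbers here (61.5% of nonzero TB EQ values were not whole); the submitters' notes also name CASAVA 1.8.2. The 3 tables hold 17492 genes, and 0 sample columns were left unused. Cells and their groups were set by the rule in the text with groups from the labels. Cells that looked like doublets or dead on images had been removed by the authors beforehand, and no doublet caller was run. CPM used each cell's total, a pseudocount of 1 and a mean of at least 5 CPM. No test was run, since cells are not replicates. Intervals are exact Poisson. The calling step was run on simulated data with known changes. Alternatives used edgeR 4.0.16 (TMM) and DESeq2 1.42.0 factors in R 4.3.3; the rest ran in Python 3.11.15.

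Named genes were the ranking genes, the 3 members with the largest difference in each of 18 lists, the 8 most abundant members of 3 identity lists, and the 8 largest differences either way outside the lists that were past 1 in all 3 experiments; MDM2, PAPPA2, TP53INP1, CDX2, TP63, DLX3, ELF5, VTCN1 and ISL1 were chosen after their values were seen. Members, lists and the comparison were chosen with earlier results of these data known. Of 380 list genes 354 were in the tables. The 3 TB cells outside the limits (TB 4, 28 and 48) were left out.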

Additional observations from a re-analysis of the deposited data

How the results depend on the processing

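Beside 821 genes higher and 997 lower, a cut of the ranking into 2 groups in place of 3 gave 524 and 466, a pseudocount of 0.1 CPM 1302 and 1641, a pseudocount of 10 CPM 233 and 207, a difference of at least 2 gave 99 and 70, and medians in place of means 1236 higher. Of the genes called in EQ, 1479 were past a difference of 1 in EQ-75% too, and 136 past a difference of 2. With only the 7 high-score cells holding at least 4 ranking genes, an alternative added after seeing the data, as was that with the other 9 and the ranking without CCNB1, 1713 genes were higher and the mitotic level differed by 2.83, beside 1.57 with all 16. With the other 9 it differed by 0.59 and 1625 genes were lower. The mitotic, replication, inhibitor, trophoblast and syncytiotrophoblast levels kept their direction under the 14 alternatives run for each. The median of the inhibitor list went from −0.29 to 0.03 with the cut into 2 groups, and the higher genes' share of calls changed with the scaling as given above. The cause of these changes was not tested. No paired analysis was possible because the groups compared hold different cells and the results come from no test. Genes near 1 count per cell are limited by depth.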

Other observations

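Outside the lists, 8 genes were named in each direction by their difference. CDCA2, which recruits a phosphatase to chromosomes at mitotic exit, had a median of 24.3 CPM in the high-score group and at most 4.05 CPM in the low-score group (difference 3.43). IQGAP3, a scaffold protein of proliferating cells, reached at most 2.02 CPM in the low-score group and was at 10 CPM or more in all 7 of the high-score cells with most ranking genes and in 2 of the other 9. KIAA1524, which codes for an inhibitor of the phosphatase PP2A, differed by 3.09, the phosphate transporter SLC20A1 by 2.78 and HN1 by 2.69. HSPA14 (2.73), GCN1 (2.72) and C16orf70 (2.72) completed the 8, and for HSPA14 and GCN1 the middle group averaged as much as the high-score group or more, 53.4 and 74.3 CPM beside 46.6 and 58.2. Among genes lower in the high-score group, CAMK2N1, an inhibitor of CaM kinase II, had at most 3.70 CPM there and 9 low-score cells above every high-score cell (difference −3.11). FICD, an enzyme of the endoplasmic reticulum that modifies the chaperone BiP, differed by −2.97, SULF1, which trims heparan sulfate, by −2.87, TIMM9 by −2.81, ZBED5 by −2.78, FBXO42 by −2.76, CCDC82 by −2.70 and PDZD2 by −2.69.

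Of 17 immediate early and stress genes 4 were lower in the high-score group and 0 higher, among them JUN, with medians of 13.1 and 43 CPM (difference −1.42), IER3 (−1.27) and FOSB (−1.19), beside 10.0% of all genes lower. In EQ-75% 2 of the 17 were lower, beside 10.4% of all genes. Of 10 apoptosis genes none were past the limit in EQ (no test was run). Of 9 pluripotency genes none were either, and NANOG had medians of 24.2 and 29.1 CPM. Of 7 amnion-associated genes 2 were lower, IGFBP7 (−1.30) and IGFBP5 (−1.04), beside 10.0% of all genes. Of 9 extravillous trophoblast genes only MMP2 was higher (1.77), a share near the 8.25% of all genes. Among 10 stromal genes only ACTA2 was higher (1.46) and only COL1A1 lower (−1.08), shares near those of all genes. The summed level of the stromal list overlapped, 1130 to 11094 CPM in the high-score group and 1183 to 11248 CPM in the low-score group. The part of these lists in the other differences was not tested.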
